A study of Mus musculus with 6 samples.

Results

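Genes of the transforming growth factor beta (TGF-beta) and bone morphogenetic protein (BMP) pathways were followed in primary brite adipocytes, the thermogenic adipocytes that form among white adipocytes, 24 h after knockdown (KD) of the long noncoding RNA *Ctcflos*. The members were the 9 genes whose symbol in the deposited table is *Tgfb1*, *Tgfb2*, *Bmp4*, *Tgfbr1*, *Tgfbr2*, *Bmpr1a*, *Smad3*, *Smad7* or *Id1*, out of 52089 symbols, and they held 60 of 168021 transcript accessions. The rows were picked by symbol, and the list itself was drawn up with earlier results of these data known. Of these 9 genes, 6 passed a filter on low values, and 3 of the 6 differed between *Ctcflos* KD and control cells. The inhibitory SMAD gene *Smad7* was higher, and both TGF-beta receptor genes, *Tgfbr1* and *Tgfbr2*, were lower. Of all genes past the filter, 11.5% were called higher and 12.4% lower.

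TGF-beta ligands are secreted in a latent form and, once released, bind the type II receptor TGFBR2, which recruits and phosphorylates the type I receptor TGFBR1. TGFBR1 then phosphorylates SMAD2 and SMAD3, which enter the nucleus with SMAD4 and regulate transcription. BMP ligands use other type I receptors, among them BMPR1A, and signal through SMAD1, SMAD5 and SMAD9 to targets such as the Id genes. SMAD7 is induced by TGF-beta and in turn blocks the activated receptor, so that it is counted as a feedback inhibitor. In adipose tissue, TGF-beta is known to restrain adipocyte differentiation and browning, whereas BMP4 and BMP7 are known to commit progenitor cells to the adipocyte lineage.

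All 6 libraries came from preadipocytes of the stromal-vascular fraction of inguinal white adipose tissue of male 129SvEv mice a few weeks old, which were induced for 2 days with insulin, triiodothyronine, IBMX, indomethacin, dexamethasone and rosiglitazone and kept for 1 day in differentiation medium with insulin, triiodothyronine and rosiglitazone. The 3 *Ctcflos* KD libraries were from cells reverse transfected with 50 nM of a locked nucleic acid gapmer, an antisense oligonucleotide that directs RNase H to its target RNA, against *Ctcflos*. The 3 control libraries, labelled NC ctrl, were from cells that received 50 nM of a nontargeting gapmer. Only 1 oligonucleotide against *Ctcflos* was used, so that loss of *Ctcflos* and any other effect of that oligonucleotide cannot be told apart. Nothing in the labels says that the replicates were separate cultures or animals, so that p-values measure the spread between these libraries, which may be technical.

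Values are read numbers divided by the length of the transcript and by the mapped reads of the library (RPKM), and a gene value is the mean over the accessions of its symbol. Differences were tested with limma on log2(RPKM + 1) over the 11701 genes that reached a mean RPKM of 1, and a gene was called at an adjusted p below 0.05. A difference on this scale understates the change of genes with low values, and ratios of mean RPKM are therefore given beside it. Over all genes tested, 11.5% were called higher and 12.4% lower in *Ctcflos* KD, and this is the background against which the counts of members are to be read.

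The depth recovered from the values was 60.8 to 75.5 mio mapped reads in *Ctcflos* KD and 62.9 to 79.2 mio in controls. This is above the read number per sample stated in the paper's methods. Whether the mates of a read pair were counted apart is not given, so read numbers below may count mates. *Ctcflos* itself, listed as *1300015D01Rik*, had 0.0969, 0.0705 and 0.210 RPKM in the KD libraries and 0.748, 0.751 and 0.840 RPKM in the controls. The groups did not overlap, the KD mean was 16.1% of the control mean, and the adjusted p by limma without a filter on low values was 0.0254. The call was made in 4 of 10 alternatives, and the log2 difference stayed at -0.63 or lower in all of them, with an adjusted p by limma of 0.00973 to 0.130. Markers of endothelial, mural and epithelial cells were low, with summed levels of at most 3.15 RPKM for any of the 3 lists in any library. The 4 macrophage markers in the table summed to 3.32 to 5.44 RPKM in *Ctcflos* KD and 0.952 to 2.83 RPKM in controls, and only *Cd68*, a lysosomal glycoprotein gene, passed the filter and was called higher (adjusted p by limma 0.0230), while *Csf1r*, a macrophage growth factor receptor gene below the filter, had 1.31, 1.48 and 1.10 RPKM in KD and 0.269, 0.833 and 0.438 RPKM in controls without overlap of the groups (adjusted p by limma without a filter 0.0658). The other 2 markers, *Itgam* and the defining marker *Ptprc*, stayed at or below 0.0513 RPKM in all libraries. Of the brite adipocyte markers, 3 of 5 tested were called lower, namely *Ucp1*, *Ppargc1a* and *Elovl3*. So were 1 of 7 general adipocyte markers, *Cebpa*, and 1 of 7 progenitor markers, *Pdgfra*. The adipocyte markers *Adipoq*, *Plin1*, *Fabp4*, *Pparg* and *Lpl* were not called (adjusted p by limma 0.0687 to 0.164). Their KD means were 69.6% to 81.4% of control without overlap of the groups, as in 44.8% of all genes tested, whereas *Cidec*, at 108%, overlapped. The part of cell composition in the values below was not tested, and in these bulk samples fewer cells of a type and less RNA per cell cannot be told apart.

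The promoters of the pair of receptor genes that fell together are shown because both genes code for subunits of the same receptor complex. The sequences are from RefSeq (GRCm38.p6), read 5′ to 3′ on the strand of the gene, and cover the 250 bases before the annotated start. Capitals mark the motifs searched on both strands: the GC box GGGCGG, the CCAAT box CCAAT, the TATA box TATAAA and the short SMAD box CAGAC.
*Tgfbr1*, chr4:47352972-47353221, plus strand: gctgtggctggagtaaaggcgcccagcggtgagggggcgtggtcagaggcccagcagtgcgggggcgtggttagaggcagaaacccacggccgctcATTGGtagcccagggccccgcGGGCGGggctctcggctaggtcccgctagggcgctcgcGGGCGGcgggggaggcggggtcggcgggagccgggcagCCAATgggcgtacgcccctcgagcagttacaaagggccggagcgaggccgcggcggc
*Tgfbr2*, chr9:116175364-116175613, minus strand: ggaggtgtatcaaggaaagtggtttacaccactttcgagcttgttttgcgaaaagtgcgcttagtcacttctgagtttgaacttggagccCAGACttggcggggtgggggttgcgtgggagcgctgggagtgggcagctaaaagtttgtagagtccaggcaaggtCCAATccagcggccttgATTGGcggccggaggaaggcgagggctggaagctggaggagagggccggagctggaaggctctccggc

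The *Tgfbr1* window had a GC content of 74.8% and held 2 GC boxes and 2 CCAAT boxes, 1 of them on each strand. The *Tgfbr2* window had a GC content of 58.4% and held 2 CCAAT boxes, 1 on each strand, and 1 SMAD box. Neither window held a TATA box. The median GC content of all 32851 promoters was 52.4%, and a GC box was present in 32.7% of them, a CCAAT box in 33.8%, a TATA box in 12.4% and a SMAD box in 42.2%. The only motif both receptor promoters held was thus the CCAAT box, which about as many promoters hold as hold a GC box. These motifs are short, and a match describes the letters of the window and no binding site. Promoters of 7 of the 9 members were in the table, and those of *Smad7* and *Id1* were not.

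In control cells, the members spanned more than 2 orders of magnitude in RPKM, a scale that is corrected for transcript length. A gene value averages all transcripts listed under its symbol, low ones included, so that the order of genes depends on this averaging. *Tgfbr2* was the highest with 24.6 ± 2.88 RPKM (SD, n = 3), followed by *Id1* with 22.5 ± 2.22 RPKM, and the ranges of this pair overlapped. *Bmpr1a* had 12.7 ± 0.393 RPKM, below every control value of *Id1* and above every control value of *Tgfbr1*. *Tgfbr1* with 5.13 ± 0.346 RPKM and *Smad3* with 4.64 ± 0.512 RPKM overlapped as gene values. On the curated RefSeq transcript alone they did not, with 8.52 to 9.37 RPKM for *Tgfbr1* and 3.96 to 4.90 RPKM for *Smad3*. *Smad7* followed with 1.29 ± 0.142 RPKM and overlapped with neither neighbour. The ligands were lowest, with 0.439 ± 0.162 RPKM for *Tgfb2*, 0.237 ± 0.172 RPKM for *Bmp4* and 0.196 ± 0.0374 RPKM for *Tgfb1*, and each ligand overlapped with the next. On the curated RefSeq transcript, the mean was 0.337 RPKM for *Tgfb1* and 0.262 RPKM for *Bmp4*. Among the members, transcripts of receptors, SMAD and feedback genes were thus above the filter of 1 RPKM, while those of all 3 ligands stayed below it. This does not hold for every ligand of the pathways. Of the other ligand genes, 3 of 8 TGF-beta and activin ligands and 2 of 13 BMP and GDF ligands passed the filter. *Tgfb3*, a TGF-beta isoform gene named after its values were seen, had 2.93, 6.82 and 3.22 RPKM in controls.

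**Figure D1:**
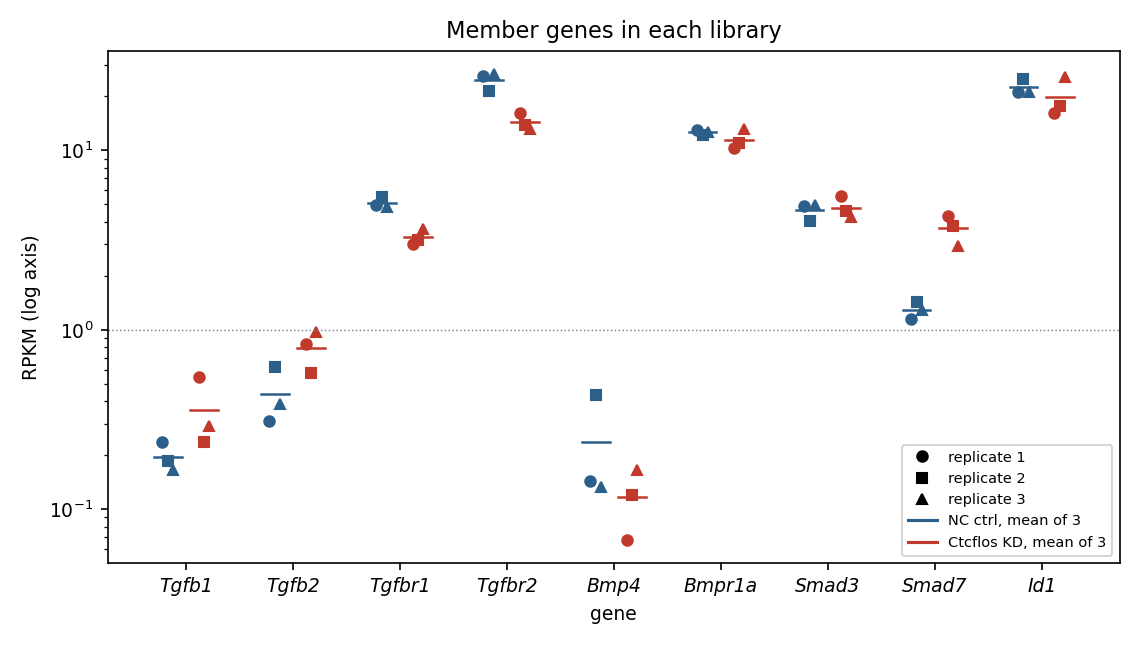
RPKM of the 9 members (log axis) in each of the 3 NC ctrl libraries (blue) and the 3 *Ctcflos* KD libraries (red), with symbols for the replicate number, bars for the group means and a dotted line at the filter of 1 RPKM. Red and blue points are fully separated for *Tgfbr1*, *Tgfbr2* and *Smad7* and overlap for the other 6 genes.

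Among the ligands, *Tgfb1* codes for the most widely expressed form of TGF-beta. It had 0.548, 0.237 and 0.291 RPKM in *Ctcflos* KD and 0.238, 0.186 and 0.165 RPKM in controls. The first KD library was the highest of the 6, and the groups overlapped by a narrow margin, since the lowest KD value was just under the highest control value. On average, KD libraries were at 183% of controls, and the difference of 0.18 on the log2(RPKM + 1) scale (95% CI -0.045 to 0.40) did not pass the test (adjusted p by limma without a filter 0.312). Without the first KD library it was 0.079 (adjusted p by limma 0.501). Its highest accession, NM_011577, had 0.974, 0.413 and 0.456 RPKM in KD and 0.398, 0.362 and 0.251 RPKM in controls. The groups did not overlap on it, as on 4 of the 5 accessions. The difference on the highest accession alone was 0.26 (adjusted p by limma 0.346). The 2 short Ensembl accessions, of 700 and 495 bp, held 0 to 19 reads in a library.

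*Tgfb2*, which codes for another isoform of TGF-beta, had 0.831, 0.572 and 0.967 RPKM in *Ctcflos* KD and 0.311, 0.621 and 0.386 RPKM in controls. The groups overlapped because the second control was above the second KD library. The KD mean was 180% of the control mean, with a difference of 0.31 (95% CI 0.011 to 0.62), an unadjusted p of 0.0443 and an adjusted p by limma without a filter of 0.200. All 7 accessions of *Tgfb2* and all 5 of *Tgfb1* had a higher mean in KD, but accessions of a gene overlap and share reads and do not count as separate evidence.

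*Bmp4*, a BMP ligand, had 0.0677, 0.120 and 0.165 RPKM in *Ctcflos* KD and 0.143, 0.435 and 0.133 RPKM in controls. The second control stood above the 5 other libraries, which lay close together. On its longest Ensembl accession, this was 76 reads in the second control against 10 to 25 reads in each other library. The KD mean was 49.6% of the control mean, and the difference of -0.14 (95% CI -0.36 to 0.087) did not pass the test (adjusted p by limma without a filter 0.439). It rested on that control, without which it was -0.027 (adjusted p by limma 0.774). *Bmp4* lies at chr14:46383520-46390669 on the minus strand (GRCm38) and overlaps 2 genes on the opposite strand. Because no source says whether reads were assigned by strand, reads of these genes cannot be told apart. The same limit holds for *Tgfb2*, which overlaps 2 genes on the opposite strand, and for *Bmpr1a*, which overlaps 1. Without the filter, 1.96% of 38335 genes were called higher and 2.76% lower, and none of the 3 ligands was among them. At unadjusted p below 0.05, 1 of the 3 ligands passed, *Tgfb2*. Among the 11701 genes past the filter, 4556 did so in the filtered fit.

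Both TGF-beta receptor genes fell. *Tgfbr1*, which codes for the type I receptor kinase, spans 61.7 kb at chr4:47353222-47414931 on the plus strand. It had 3.01, 3.17 and 3.67 RPKM in *Ctcflos* KD and 4.99, 5.52 and 4.87 RPKM in controls. The groups were separate, with the highest KD library well under the lowest control. The mean in KD was 64.0% of the control mean, with a difference of -0.52 ± 0.10 (SE, adjusted p by limma 0.0133). On its accession ENSMUST00000007757, of 5756 bp, this was 2295, 2227 and 2320 reads in KD and 4120, 4210 and 3037 reads in controls, before scaling to depth.

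*Tgfbr2*, which codes for the type II receptor that binds the ligand, spans 91.1 kb at chr9:116084293-116175360 on the minus strand. It had 16.2, 13.9 and 13.2 RPKM in *Ctcflos* KD and 25.9, 21.3 and 26.7 RPKM in controls. The groups were separate here too, and the second control was the lowest of its group. The level in KD averaged 58.7% of the control mean, with a difference of -0.73 ± 0.13 (SE, adjusted p by limma 0.0108).

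The ratio of *Tgfbr1* to *Tgfbr2* within a library was 0.186, 0.228 and 0.277 in KD and 0.193, 0.259 and 0.182 in controls. The groups overlapped, and the difference of the log2 ratio was 0.12 (exact two-sided permutation test, p = 0.6, adjusted over 4 ratios 0.8), so that no shift of the pair against each other was detected. With 3 libraries against 3, this exact permutation test cannot go below p = 0.1.

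Neither call was made without the first or the third control. Without the first control, the adjusted p by limma was 0.0598 for *Tgfbr1* and 0.0594 for *Tgfbr2*, and without the third it was 0.0577 and 0.0627, whereas both genes stayed called in the 10 other alternatives. The differences were -0.53 and -0.69 without the first control and -0.55 and -0.67 without the third. Of all genes tested, these fits called 421 and 369, against 2803 with all 6 libraries. Among genes with a span of 30 to 100 kb, where both receptor genes fall, 16.8% were called lower and 7.88% higher, with a median difference of -0.036. Among genes of 10 to 30 kb, 8.54% were called lower. This share was 39.2% among genes of 100 to 200 kb and 60.9% among those above 200 kb. Spans were available for 81.0% of the genes tested. The part of gene length in the lower receptor values was not tested.

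*Bmpr1a*, which codes for a type I receptor of BMP ligands, had 10.4, 10.99 and 13.2 RPKM in *Ctcflos* KD and 13.1, 12.3 and 12.7 RPKM in controls. The third KD library was the highest of the 6 and the other KD libraries were the lowest, so that the groups overlapped. The difference was -0.14 (95% CI -0.41 to 0.13, adjusted p by limma 0.420). The estimates for *Tgfbr1* and *Tgfbr2* lie outside this interval, but the interval of *Tgfbr1* (95% CI -0.75 to -0.29) overlaps with it. The ratio of *Bmpr1a* to *Tgfbr1* was 3.44, 3.47 and 3.60 in KD and 2.62, 2.22 and 2.62 in controls. The groups did not overlap, and the difference of 0.50 in the log2 ratio reached the smallest p this test allows (exact two-sided permutation test, p = 0.1, adjusted over 4 ratios 0.2), which does not pass the threshold.

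*Smad3*, which codes for a receptor-activated SMAD of the TGF-beta branch, had 5.54, 4.62 and 4.25 RPKM in *Ctcflos* KD and 4.87, 4.05 and 4.997 RPKM in controls. The libraries of both groups were interleaved. The difference was 0.039 (95% CI -0.24 to 0.32, adjusted p by limma 0.831), and its sign changed in 3 of 12 alternatives. *Smad3* has the longest span of the members, with 111 kb. In its class, of 100 to 200 kb, 39.2% of genes were called lower and 3.54% higher.

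*Smad7*, the feedback inhibitor, rose. It had 4.29, 3.81 and 2.92 RPKM in *Ctcflos* KD and 1.15, 1.43 and 1.28 RPKM in controls. The lowest KD library, the third, was still above 2 times every control value. The KD mean was 2.85-fold the control mean, and the difference was 1.02 ± 0.13 (SE, adjusted p by limma 0.00442). On its accession ENSMUST00000026999, of 4278 bp, this was 1491, 1339 and 796 reads in KD and 417, 543 and 365 reads in controls. *Smad7* was called in all 12 alternatives, with adjusted p-values by limma of 0.000392 to 0.0350. It lies at chr18:75367529-75395935 on the plus strand (GRCm38) and no other annotated gene overlaps it.

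The ratio of *Smad7* to *Smad3* was 0.774, 0.825 and 0.686 in KD and 0.236, 0.354 and 0.257 in controls. The lowest KD ratio was above the highest control ratio, and the difference of 1.45 in the log2 ratio again reached the smallest p possible (exact two-sided permutation test, p = 0.1, adjusted over 4 ratios 0.2). The fourth ratio, of *Tgfb1* to *Tgfb2*, differed by -0.084 in log2 (p = 0.8, exact two-sided permutation test, adjusted 0.8).

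*Id1*, a direct target of BMP signalling that codes for an inhibitor of helix-loop-helix transcription factors, had 16.1, 17.7 and 25.6 RPKM in *Ctcflos* KD and 21.2, 25.1 and 21.2 RPKM in controls. The third KD library was the highest of all 6, while the other KD libraries were below every control. The difference was -0.20 (95% CI -0.61 to 0.21, adjusted p by limma 0.430), the widest interval of the 6 members past the filter. Without this library, the difference was -0.39 (adjusted p by limma 0.0381), and over the other alternatives the adjusted p was 0.415 to 0.802. The fit without this library called 4810 of 11704 genes, against 2803 of 11701 with all 6 libraries. The same library was also the highest of the 6 for *Bmpr1a* and *Tgfb2*.

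**Figure D2:**
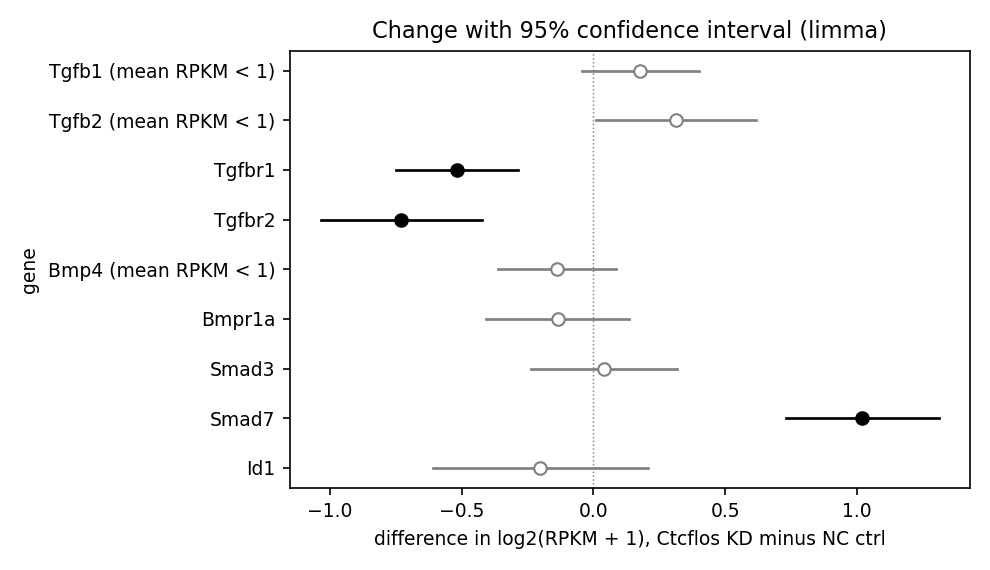
Difference of the group means of log2(RPKM + 1), *Ctcflos* KD minus NC ctrl, for the 9 members, with 95% confidence intervals from limma and filled points for the genes called. The intervals of *Tgfbr1* and *Tgfbr2* lie below 0 and that of *Smad7* above 0, and the genes with a mean RPKM under 1 come from the fit without a filter.

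Of the 9 members, 1 was called higher and 2 lower, and 6 passed the filter on low values. The groups did not overlap in 3 of the 6 members past the filter, against 44.8% of all genes tested. The median difference of these 6 members was -0.17, against 0.028 over all genes tested. As a share, the 3 called of 6 stand beside the background of 11.5% higher and 12.4% lower, but with so few genes this is a description only.

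**Figure D3:**
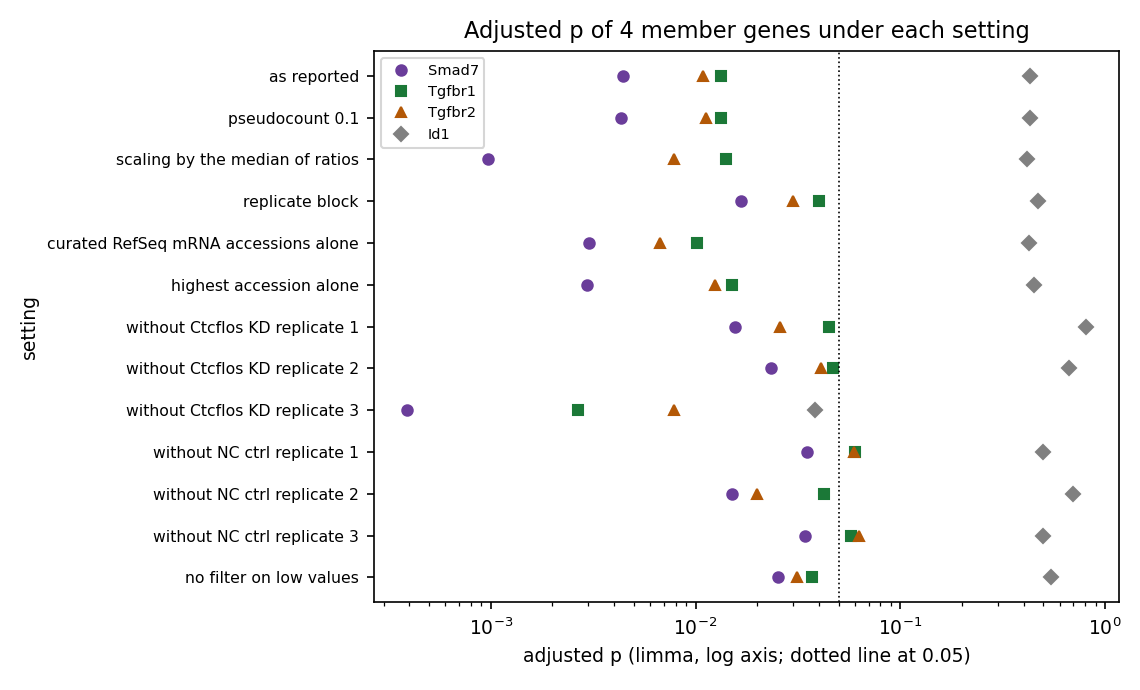
Adjusted p by limma (log axis) of *Smad7*, *Tgfbr1*, *Tgfbr2* and *Id1* as reported and under each of 12 alternative settings, with a dotted line at the threshold of 0.05. *Smad7* is left of the line throughout, *Tgfbr1* and *Tgfbr2* cross it without the first or the third control, and *Id1* is left of it only without the third KD library.

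The accessions of each called gene moved the same way, but they overlap and share reads and do not count as separate evidence. All 6 accessions of *Smad7* were higher in KD without overlap of the groups, with KD means of 231% to 404% of control. Its highest accession, AK133505, rose from 2.09 to 5.90 RPKM on average. All 9 accessions of *Tgfbr2* were lower without overlap, at 57.6% to 73.9% of control, and the highest, AK003861, had means of 36.7 RPKM in controls and 22.2 RPKM in KD. All 9 accessions of *Tgfbr1* were lower, 6 of them without overlap, and the 7 with a mean RPKM of at least 1 were at 62.6% to 70.7% of control. An accession of *Tgfbr1* listed at 0 in all KD libraries, ENSMUST00000123962, held only 0 to 2 reads in the controls.

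In 4 of the other members all accessions also lay on 1 side of the control mean, and in *Bmpr1a* and *Bmp4* they were mixed. The 5 accessions of *Smad3* were at 103% to 104% of control and the 3 of *Id1* at 87.5% to 88.5%, with overlapping groups for each. Of 10 accessions of *Bmpr1a*, 9 had a lower mean in KD and 1, AK164992, a higher mean. Of 6 accessions of *Bmp4*, 5 had a lower mean, and ENSMUST00000135408, with the higher one, held 0 to 2 reads in any library. The use of accessions relative to each other, tested with limma diffSplice, was called in 0 of the 6 members past the filter, with an unadjusted p of 0.299 for *Smad7* and 0.791 to 0.993 for the other 5 (all adjusted p-values by limma 1), and 0.668% of 10027 genes were called. No relative usage change was thus detected in the members, and 0 of the 6 passed at an unadjusted p below 0.05.

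**Figure D4:**
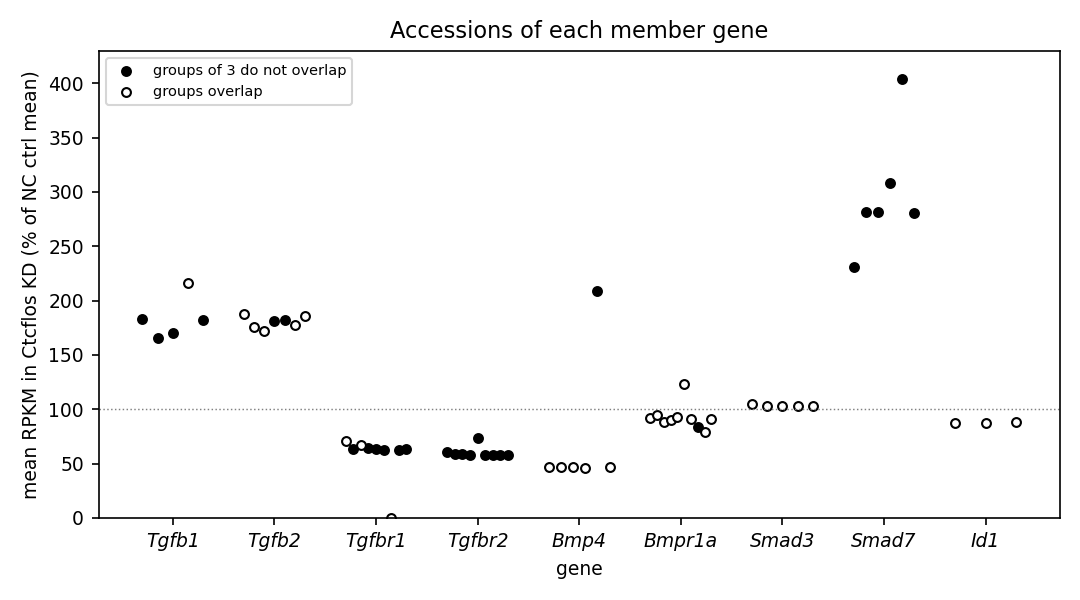
Mean RPKM in *Ctcflos* KD as percent of the NC ctrl mean for each accession of the 9 members, filled where the 3 KD and the 3 control libraries do not overlap. All accessions of *Smad7* lie at 231% or more and all accessions of *Tgfbr1* and *Tgfbr2* below 74%, and the accession of *Tgfbr1* at 0% rests on 0 to 2 reads.

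Genes whose pattern over the 6 libraries was most like that of a member were found by the smallest root mean square difference of log2(RPKM + 1), centred on the mean of each gene. For *Tgfbr1* this was *Rnmt* (0.034), for *Tgfbr2* *Loxl2* (0.068) and for *Smad7* *2010003K11Rik* (0.025). *Loxl2*, a lysyl oxidase-like enzyme gene of the extracellular matrix, had 6.40, 5.51 and 5.28 RPKM in KD and 10.7, 8.22 and 9.65 RPKM in controls. For *Bmpr1a* it was *Pstk* (0.026), for *Smad3* *Hic1* (0.020) and for *Id1* *Nnat* (0.028). These values describe likeness over 6 libraries of 2 groups only.

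The wider pathway was followed in 8 lists with 90 other genes, of which 55 passed the filter. Of these, 8 were called higher and 11 lower, which is 14.5% and 20.0% of those tested beside 11.5% and 12.4% of all genes, and 36 were not called. The median difference of the 55 genes was 0.050. The calls of the lists depended on single libraries, above all on the controls. Without the first or the third control, 0 genes were called higher and 5 lower, and without the third KD library, 11 were called higher and 16 lower. Calls over all genes tested moved likewise. They numbered 2803 with all 6 libraries, 421 without the first control, 369 without the third control and 4810 without the third KD library. The 5 genes that were called in each of the 12 alternatives were *Tgfbr3*, *Nedd4l*, *Smurf1*, *Bmper* and *Fbn1*, all of them lower in KD. Over all genes, the share called lower was 39.2% at spans of 100 to 200 kb and 60.9% above 200 kb. The spans of the genes in the lists are not given here, and the part of gene length in their calls was not tested.

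Of the TGF-beta and activin ligands, 3 of 8 were tested and 1 was called. *Gdf11*, a ligand of the activin branch, had 2.54, 3.19 and 1.773 RPKM in KD and 1.27, 1.21 and 1.47 RPKM in controls (difference 0.58, adjusted p by limma 0.0294). The groups were separate, and the third KD library was closest to the controls. This gene was called in 5 of 12 alternatives and, of the fits that left out 1 library, only in that without the third KD library. *Inhba*, an activin subunit gene that was chosen after its values were seen, had 6.73, 9.0 and 10.9 RPKM in KD and 2.55, 7.90 and 2.38 RPKM in controls (adjusted p by limma 0.0671). Its second control stood near the KD libraries, the same control that was highest of its group for *Tgfb2* and *Bmp4*. Of the BMP and GDF ligands, 2 of 13 were tested, and *Gdf10* rose to 1.95-fold the control mean (difference 0.55, adjusted p by limma 0.0128), with 2.24, 1.99 and 1.58 RPKM in KD against 0.977, 0.966 and 1.04 RPKM in controls, and was called in 10 of 12.

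Among the other receptors, 7 of 12 were tested, 2 were called lower and 0 higher. *Tgfbr3*, betaglycan, a coreceptor that presents TGF-beta to the type II receptor, had 6.24, 4.39 and 7.16 RPKM in KD and 13.0, 13.2 and 13.2 RPKM in controls. Its mean in KD was 45.1% of control and the difference of -1.05 (adjusted p by limma 0.00673) was called in all 12 alternatives. *Acvr1c*, a type I receptor of the activin branch that is abundant in adipocytes, had 2.10, 2.24 and 4.57 RPKM in KD and 6.998, 6.25 and 6.11 RPKM in controls (difference -0.96, adjusted p by limma 0.0184). The third KD library was again closer to the controls than the others, and the gene was called in 6 of 12 alternatives.

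Of the SMADs and their regulators, 14 of 15 were tested, 3 were called higher and 5 lower. *Nedd4l* and *Smurf1*, genes of ubiquitin ligases that target SMADs and receptors, fell in all 12 alternatives. *Nedd4l* had 0.527, 0.351 and 0.618 RPKM in KD and 1.94, 1.766 and 1.91 RPKM in controls, 26.6% of control on average (difference -0.94, adjusted p by limma 0.00266). *Smurf1*, whose product is brought to the receptor by SMAD7, had 2.01, 1.67 and 2.19 RPKM in KD and 4.82, 4.22 and 4.87 RPKM in controls (difference -0.93, adjusted p by limma 0.00328). The groups were far apart in both.

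*Skil* and *Tgif1*, genes of transcriptional corepressors of SMAD complexes, rose. *Skil* had 6.92, 6.57 and 6.42 RPKM in KD and 3.47, 4.43 and 3.79 RPKM in controls (difference 0.64, adjusted p by limma 0.00834). *Tgif1* had 7.49, 8.23 and 6.15 RPKM in KD and 4.23, 4.44 and 4.45 RPKM in controls (difference 0.62, adjusted p by limma 0.0120). The remaining 4 called genes of this list, which fall outside the naming rule and were named after their values were seen, were *Bambi*, a pseudoreceptor gene (0.62, adjusted p by limma 0.0245), *Smurf2* (-0.45, 0.0230), *Smad1* (-0.34, 0.0350) and *Smad2* (-0.31, 0.0419). Of 12 alternatives, *Bambi* was called in 6, *Smurf2* and *Smad1* in 5 and *Smad2* in 3, whereas *Skil* and *Tgif1* were called in 10 each. The regulators that rose and those that fell thus include inhibitors of the pathway in both directions.

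Of the extracellular antagonists, 9 of 12 were tested, 1 was called higher and 2 lower. *Bmper*, which codes for a BMP-binding protein, had 4.75, 5.04 and 5.65 RPKM in KD and 9.43, 9.82 and 10.8 RPKM in controls (difference -0.84, adjusted p by limma 0.00457). *Chrdl1*, a chordin-like BMP antagonist gene, was at 57.6% of control (-0.52, adjusted p by limma 0.0236). *Fst*, the gene of the activin-binding protein follistatin, was 1.62-fold higher (0.57, adjusted p by limma 0.0219), and its second control was the highest control with 4.20 RPKM. Both *Chrdl1* and *Fst* were called in 6 of 12 alternatives, and *Bmper* in all.

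Of the genes for latency and activation of TGF-beta, 5 of 11 were tested and 1 was called. *Fbn1*, which codes for the microfibril protein fibrillin to which latent TGF-beta complexes are anchored, had 10.6, 6.65 and 9.05 RPKM in KD and 18.1, 18.8 and 16.9 RPKM in controls. The KD mean was 48.9% of control, and the difference was -0.97 (adjusted p by limma 0.00834).

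Of the TGF-beta target genes, 11 of 12 were tested, 2 were called higher, 1 lower and 8 not. *Ctgf*, a matricellular protein gene, had 30.1, 28.7 and 18.7 RPKM in KD and 4.68, 19.8 and 5.08 RPKM in controls. The groups overlapped, since the second control was above the third KD library, and the difference of 1.55 (adjusted p by limma 0.0446) was called in 7 of 12 alternatives. Without the second control it was 2.16 (adjusted p by limma 0.00891, and 0.00891 to 0.152 over all alternatives). *Cdkn2b*, a cell cycle inhibitor gene, had 21.8, 24.0 and 13.2 RPKM in KD and 11.4, 8.73 and 11.7 RPKM in controls (difference 0.80, adjusted p by limma 0.0340), and was called in 5 of 12. *Postn*, which codes for the matrix protein periostin, was lower in KD, with 121, 136 and 132 RPKM against 185, 196 and 196 RPKM (difference -0.57, adjusted p by limma 0.0168), and was called in 9 of 12.

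Of the BMP target genes, 4 of 7 were tested and 0 were called by limma. An unadjusted p below 0.05 was reached by 4556 of all 11701 genes tested, and by 2 of these 4, *Atoh8* and *Zfp423*. Their values, named after they were seen, were 6.11, 5.21 and 7.70 RPKM in KD and 4.06, 5.72 and 3.85 RPKM in controls for *Atoh8*, and 1.03, 0.497 and 1.07 RPKM against 1.69, 1.24 and 1.60 RPKM for *Zfp423*. The groups overlapped for *Atoh8* and were separate for *Zfp423*, in opposite directions.

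**Figure D5:**
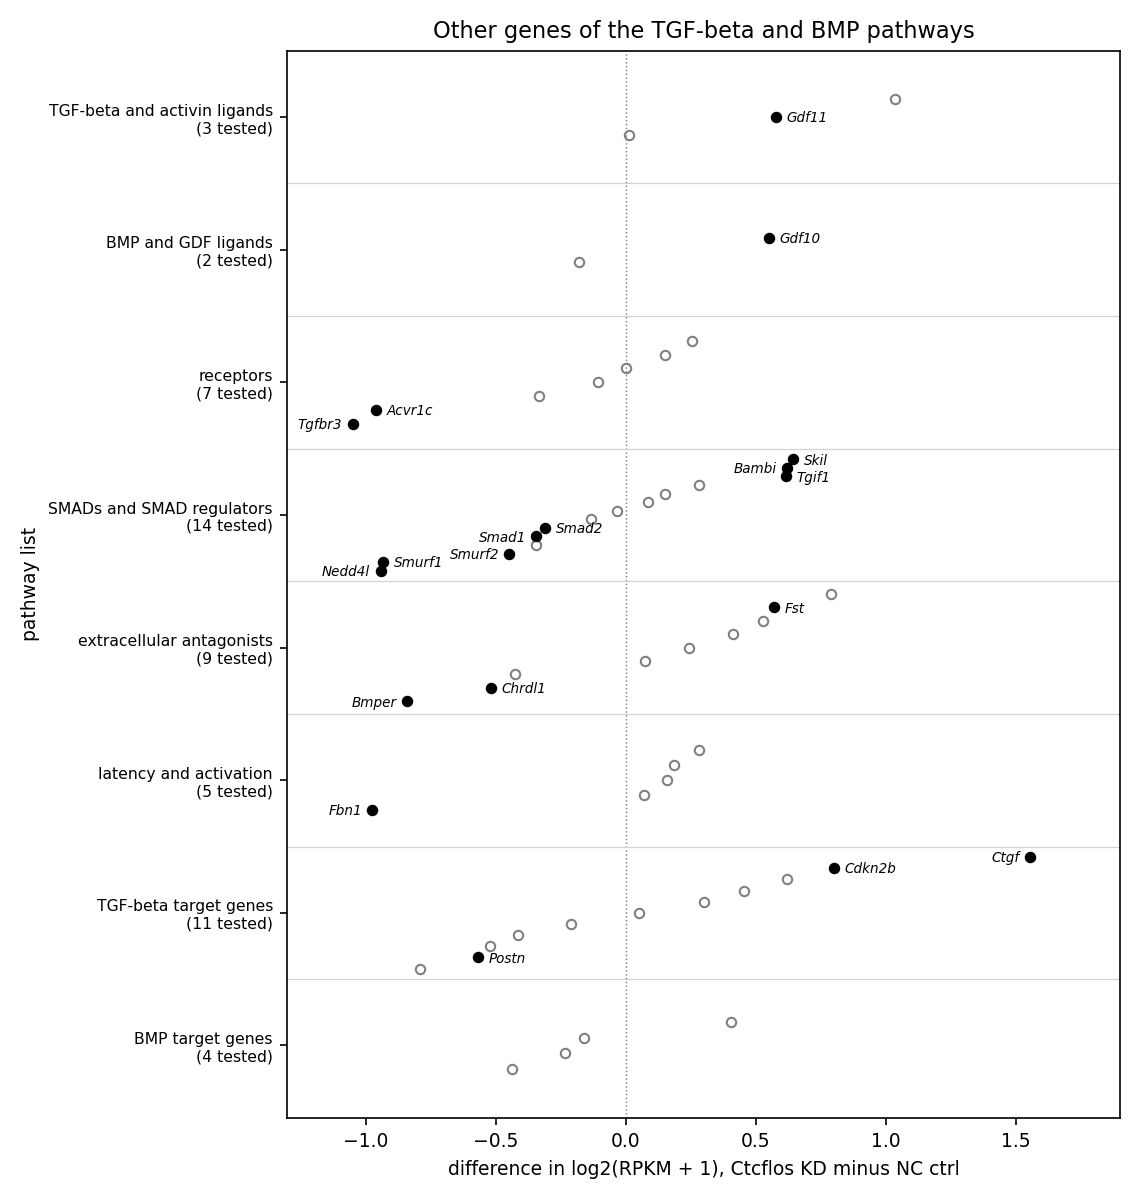
Difference of the group means of log2(RPKM + 1), *Ctcflos* KD minus NC ctrl, for the 55 tested genes of the 8 pathway lists (rows), with filled, named points for the 19 genes called and open points for the others. Called genes lie on both sides of 0, from -1.05 for *Tgfbr3* to 1.55 for *Ctgf*.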

How the data were processed

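Per the labels and the study's methods, total RNA of 6 libraries was prepared with a stranded kit and sequenced in paired ends. The authors deposited 1 table of RPKM values with decimal commas, in which replicates were not pooled. Alignment with STAR to GRCm38 is described for the splice analysis, and how the RPKM table was made is not given in the sources used here. After removal of exact repeats, 168021 of 168326 lines were used.

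The gene value was the mean RPKM over the accessions of a symbol. Differences in abundance were tested by limma-trend on log2(RPKM + 1), with group as the only term, for genes that reached a mean RPKM of 1, and p-values were adjusted by Benjamini-Hochberg over all genes tested. Members below the filter, and *Ctcflos*, were read from the fit without it. Accession usage was tested by diffSplice in limma, with a Simes p for each gene. Ratios were compared by exact two-sided permutation tests. Accessions of a gene overlap and share reads. Depth was recovered from low values of Ensembl transcripts of 300 to 1500 bp with a Gencode vM21 length, of which at least 96.4% in each library were whole multiples of 1 read within 0.03 reads. Intervals are those of limma and cover the spread between libraries. Promoters are from RefSeq, loci and spans from Gencode vM21, with RefSeq spans through older symbols.

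The members and gene lists were chosen with earlier results of these data known. Named were all 9 members and, of each pathway list, up to 4 called genes with the smallest adjusted p. The fits were tested on simulated data. Alternatives were a pseudocount of 0.1, no filter, scaling by the median of ratios, a replicate block, curated RefSeq or the highest accession alone, and leaving out each library. R 4.3.3, limma 3.58.1, Python 3.11.15, pandas 2.3.3, numpy 2.4.6 and scipy 1.17.1 were used.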

Additional observations from a re-analysis of the deposited data

How the results depend on the processing

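*Smad7* was called in all 12 alternatives and *Tgfbr1* and *Tgfbr2* in 10 each, whereas *Id1* was called in 1, *Bmpr1a* and *Smad3* in none of 12 and the 3 ligands in none of 11. The difference of *Smad3* changed sign to -0.0038 with scaling by the median of ratios, to -0.050 without the first KD library and to -0.038 without the second control. Leaving out 1 library gave 1 to 4 called members, 130 to 2727 genes called higher and 239 to 2083 lower, and 0 to 11 genes of the pathway lists higher and 5 to 16 lower. The difference of *Smad3* was -0.050 to 0.11 over these. The highest counts came without the third KD library and the lowest without the third control. Without the filter, 750 genes were called higher, and 3 genes of the lists higher and 6 lower. Nothing in the labels says whether same-numbered libraries of the 2 groups are paired. Their deviations from the group means correlated with r = 0.29, -0.29 and -0.42 over genes. With 3 libraries in a group, these correlations cannot decide whether libraries were paired. With a replicate block, 746 genes were called higher and 925 lower, 5 genes of the lists were higher, and the same 3 members were called. *Ctcflos* had an adjusted p of 0.113 by limma with the block. Scaling moved the median difference of all genes from 0.028 to -0.012. Of the 19 called genes of the pathway lists, 5 were called without the first or the third control, 9 without the filter and 12 with the block, and 0 changed sign. The Ensembl accessions of *Tgfb1* and *Bmp4* held 0 to 19 and 0 to 76 reads, and the part of counting error in their values was not tested.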
